A study of Mus musculus with 2 samples.

Results

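The genes described here are the 5 NF-kB subunit genes of the mouse (Nfkb1, Nfkb2, Rel, Rela and Relb), the IkB genes Nfkbia, Nfkbib, Nfkbie and Nfkbid, and Tnfaip3, which encodes the inhibitor A20. They were chosen by name as 10 of the 54532 Ensembl genes in the deposited count table. Bulk RNA-seq was done on primary splenic CD8+ T cells of wild-type mice, kept for 8 h in RPMI 1640 without methionine or in complete RPMI 1640. Both groups were wild type and differed, per the labels, in the medium only, and the mice are given as ND mice, with no age or sex. Each medium has 1 library, so the differences have no replicate check and no p-values are printed. The sources used here do not give whether the 2 cultures came from the same animals or whether animals were pooled.

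NF-kB is a family of dimeric transcription factors that T cells use to turn antigen, costimulatory and cytokine signals into gene expression. In resting cells the dimers are held in the cytoplasm by IkB proteins. A signal activates the IkB kinase complex, IkB is degraded, and the freed dimers enter the nucleus. NF-kB in turn is known to drive transcription of Nfkbia and Tnfaip3, which end the response. In a slower, noncanonical route the kinase NIK leads to processing of p100, the product of Nfkb2, so that dimers of p52 and RelB form.

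The methionine-free library held 19647681 counts and the complete-medium library 14646527. Levels of 1 gene in both libraries are given in CPM, counts per 1000000 scaled with edgeR's TMM factors, and a fold is the methionine-free over the complete-medium CPM. The range in brackets after a fold is its exact conditional 95% interval, which holds counting error and no spread between cultures. A log2 difference is methionine-free minus complete medium, taken with 0.5 counts added, and calls at 1.5-fold or 2-fold were made on it. As these are bulk libraries, a change in the mix of cells and a change in RNA per cell cannot be told apart. All 7 markers of CD8+ T cells examined were between 107 and 828 CPM in the methionine-free library and between 122 and 1052 CPM in complete medium, and none was 1.5-fold apart. Their sum was 2373.5 CPM without methionine and 2805.4 CPM in complete medium, a ratio of 0.846 (0.835 to 0.857). The counting interval lay below a ratio of 1 for 5 of the 7 and above it for 1. Cd4 had 11 counts without methionine and 9 in complete medium.

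Because the members include genes that NF-kB itself is known to regulate, their promoters are shown first, with the matches to kB motifs. RefSeq promoter windows (build GRCm38.p6, 250 bases before to 50 after a start) were at hand for 8 of the 10 genes, all but Nfkb1 and Relb, with 13 windows in all. The motif GGGNNTTTCC, a usual form of the site bound by NF-kB dimers, was searched on both strands. It was present in a window of Rel, Nfkbia, Tnfaip3 and Nfkb2 and in none of Nfkbib, Nfkbie, Nfkbid and Rela. Among all 32851 windows of the table, 1.63% held it, and 1.89% of 27025 genes had it in at least 1 window. A broader form, the degenerate kB consensus, which overlaps the first motif, was also found in windows of Nfkbie and Nfkbid, thus in 6 of the 8 genes, against 5.14% of all genes. The letters of both motifs were chosen after the promoters and the folds of these genes had been seen, so the split between the genes supports nothing by itself. A match says only that these letters stand in the window.

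The stretches shown hold a match and are printed 5′ to 3′ on the strand of its gene, and the capitals mark GGGNNTTTCC or its reverse complement in the first 4 and the degenerate consensus in the last 2. Nfkbia (chr12:55492648-55492767, minus strand) carries the reverse complement, with its first base 29 bases before the start, Rel (chr11:23771030-23771089, minus strand) 91 bases before it and Tnfaip3 (chr10:19015411-19015470, minus strand) 12 bases before it. Nfkb2 (chr19:46304707-46304736, plus strand) carries the motif 11 bases before the first of its 3 RefSeq starts. GENCODE starts Nfkb2 further upstream, and all 30 bases shown lie in an annotated Nfkb2 exon. Nfkb2 has a second match at chr19:46305705-46305714, which begins 10 bases after the second start and also lies in the window of the last. Nfkbie is shown at chr17:45555570-45555629 and Nfkbid, for the second of its 3 starts, at chr7:30422166-30422245, both on the plus strand. The Tnfaip3 and Nfkbid stretches also lie within the GENCODE bounds of their genes, but outside annotated exons.
Nfkbia: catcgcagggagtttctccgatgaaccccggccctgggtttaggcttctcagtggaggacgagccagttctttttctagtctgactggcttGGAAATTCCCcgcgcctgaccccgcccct
Rel: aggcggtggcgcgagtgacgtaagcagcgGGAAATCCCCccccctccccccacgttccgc
Tnfaip3: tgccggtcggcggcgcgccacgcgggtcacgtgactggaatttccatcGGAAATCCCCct
Nfkb2: ccccctcggggggccgaaaGGGGCTTTCCc
Nfkbie: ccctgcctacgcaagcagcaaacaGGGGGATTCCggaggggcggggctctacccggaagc
Nfkbid: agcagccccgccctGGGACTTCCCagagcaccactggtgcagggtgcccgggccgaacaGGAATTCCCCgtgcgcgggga

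**Figure D1:**
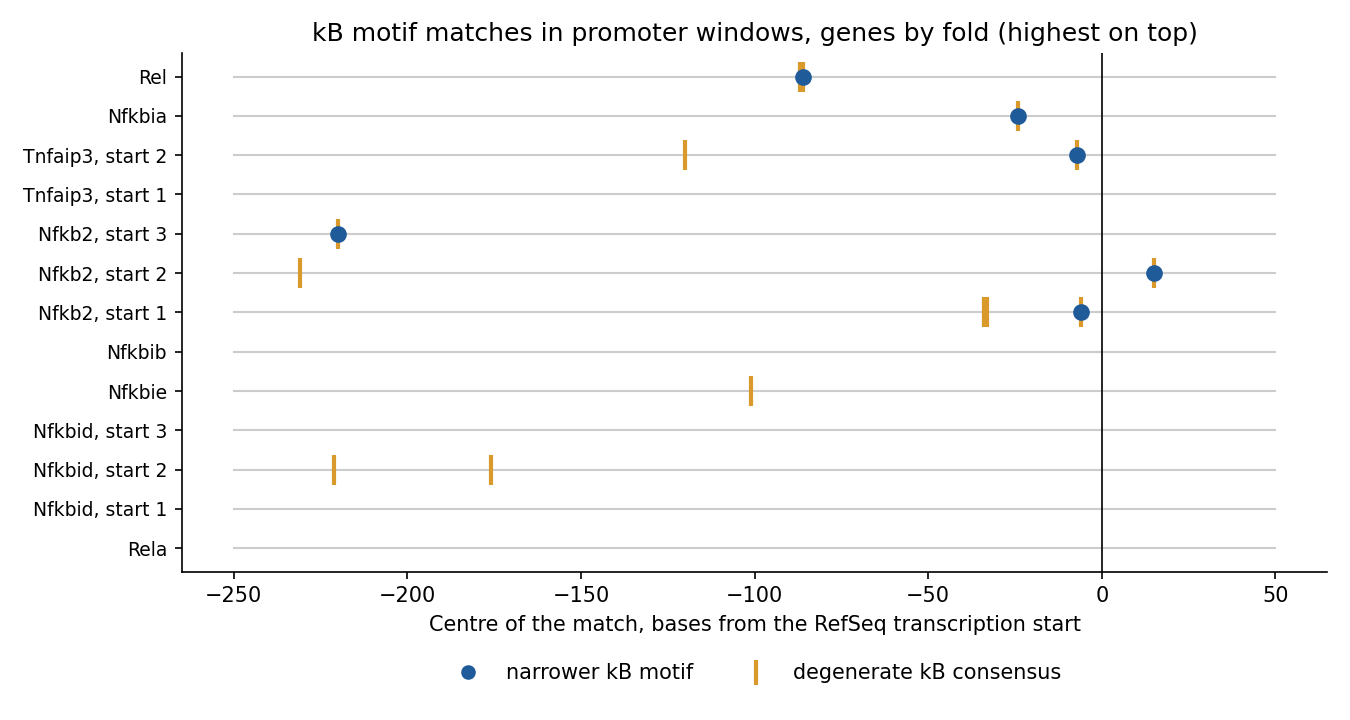
Positions of motif matches in the 13 RefSeq promoter windows of 8 genes, with genes ordered by fold from highest (top) to lowest and numbered starts in order of coordinate. The x axis gives the distance in bases of the centre of a match from the start; blue points are GGGNNTTTCC on either strand and orange bars the degenerate kB consensus. Blue points lie in windows of Rel, Nfkbia, Tnfaip3 and Nfkb2, the 4 upper genes, but the motif was chosen after the folds had been seen.

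All 10 genes lay higher in the methionine-free library, and all 10 passed the minimum mean of 10 counts. Over the 13041 genes past that minimum, 52.4% lay higher. At a fold of at least 1.5, 7 of 10 were higher and none was lower, where 15.7% of all genes were higher and 18% lower. At 2-fold, 4 of 10 were higher and none lower, where 5.8% of all genes were higher and 9.29% lower. The counting interval lay above a ratio of 1 for all 10 members and for 35.3% of all genes. Such an interval narrows as counts rise, and the 35.3% includes genes down to a mean of 10 counts, so the 2 shares are not matched for depth. The median log2 difference of the members was 0.85 and that of all genes 0.04. Every member had a mean above 100 counts; among the 9522 such genes of the table, 12.2% were at least 1.5-fold higher. With 1 library per medium these counts describe these 2 libraries.

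In order of fold, Rel, Nfkbia, Tnfaip3 and Nfkb2 lay between 2.40-fold and 2.68-fold at the top, and the ratio of folds of neighbours had an interval that held 1. The ends of this run differed, the fold of Rel being 1.12 times that of Nfkb2 (1.03 to 1.20). Nfkbib came next, and the fold of Nfkb2 was 1.29 times that of Nfkbib (1.19 to 1.40). Nfkbib, Relb, Nfkbie, Nfkbid and Rela lay between 1.44-fold and 1.85-fold, and between neighbours the interval again held 1, but here too the ends differed, the fold of Nfkbib being 1.29 times that of Rela (1.18 to 1.41), a ratio close to that of Nfkb2 to Nfkbib. Nfkb1 was last at 1.24-fold, and the fold of Rela was 1.16 times that of Nfkb1 (1.09 to 1.24). The 4 genes at the top are those with GGGNNTTTCC in a promoter window, among the 8 genes with windows. As the motif was chosen after the folds had been seen, this match supports nothing by itself.

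**Figure D2:**
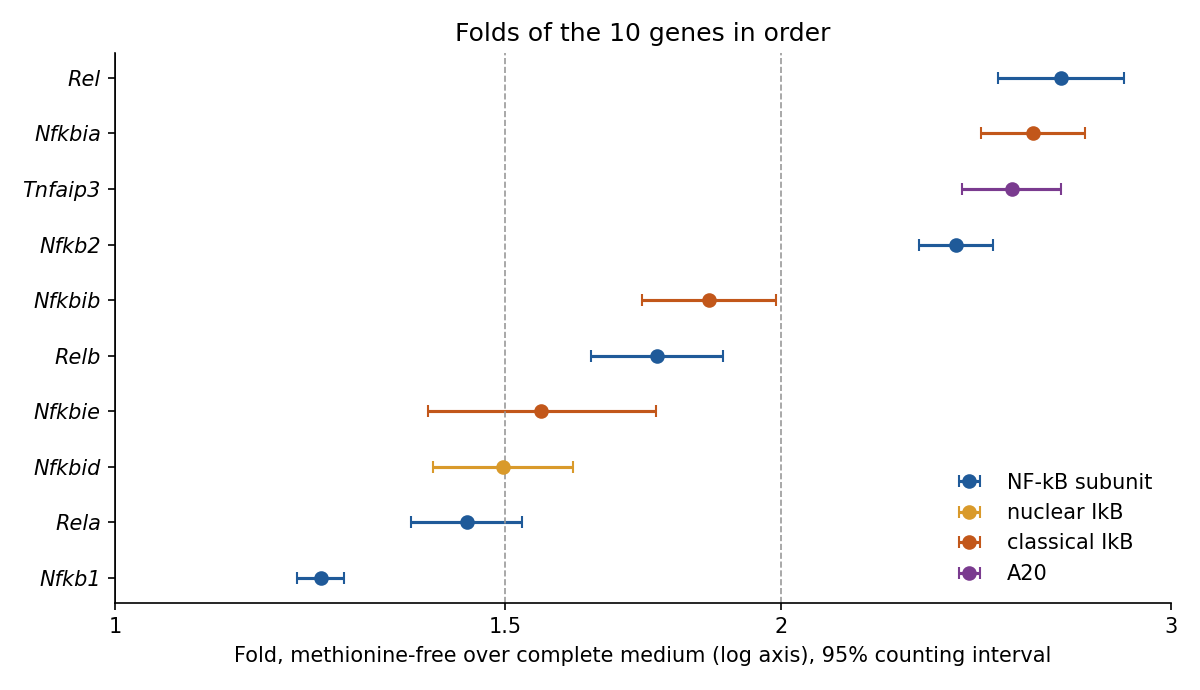
Fold of each gene, methionine-free over complete medium, on a log axis, with points coloured by the role of the protein and bars for the 95% counting interval. Dashed lines stand at 1.5-fold and 2-fold and the solid line at no difference; Rel, Nfkbia, Tnfaip3 and Nfkb2 lie right of 2-fold, and Nfkb1 lies nearest to 1.

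Among the subunits, Rel encodes c-Rel, the subunit best known for its role in activated lymphocytes (ENSMUSG00000020275, chromosome 11, 23736847 to 23770970, minus strand, mm10). It had 4190 counts in the methionine-free library, or 214 CPM (207 to 220), and 1174 in complete medium, or 79.9 CPM (75.4 to 84.6). It was 2.68-fold higher (2.51 to 2.86), with 97.5% of all genes at or below its log2 difference. Rela encodes p65, the transactivating subunit of the canonical p50-p65 dimer (ENSMUSG00000024927, chromosome 19, 5637483 to 5648130, plus strand). It had 3396 counts without methionine, or 173 CPM, and 1766 in complete medium, or 120 CPM, and was 1.44-fold higher (1.36 to 1.53). The fold of Rel was thus 1.86 times that of Rela (1.70 to 2.03), a ratio that does not depend on scaling.

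Nfkb1 encodes p105, the precursor of p50; p105 also holds IkB-like ankyrin repeats (ENSMUSG00000028163, chromosome 3, 135584655 to 135691547, minus strand). It had the most counts of the 10 genes, 17003 without methionine, or 868 CPM, and 10291 in complete medium, or 701 CPM. Its fold of 1.24 (1.21 to 1.27) was passed or equalled by 30.7% of all genes. Nfkb2, the p100 gene (ENSMUSG00000025225, chromosome 19, 46304320 to 46312385, plus strand), had 11103 counts without methionine, or 567 CPM, and 3470 in complete medium, or 236 CPM. It was 2.40-fold higher (2.31 to 2.49), 1.94 times the fold of Nfkb1 (1.85 to 2.03). Nfkb2 shares 299 exon bases with Psd on the opposite strand, which had 1532 counts without methionine and 461 in complete medium, and 531 with AC114539.1, not analysed here, also on the opposite strand. The sources used here do not give whether counting used strand.

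Relb, whose protein pairs with p52 in the noncanonical route (ENSMUSG00000002983, chromosome 7, 19606217 to 19629438, minus strand), had 2782 counts without methionine and 1187 in complete medium. Its level was 142 CPM without methionine and 80.8 CPM in complete medium, a 1.76-fold difference (1.64 to 1.88). The fold of Rel was 1.52 times that of Relb (1.38 to 1.67).

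Nfkbia encodes IkB-alpha, the inhibitor that is degraded and remade in each cycle of the canonical pathway (ENSMUSG00000021025, chromosome 12, 55489410 to 55492647, minus strand). It had 5992 counts without methionine, or 306 CPM (298 to 314), and 1728 in complete medium, or 118 CPM (112 to 123), and was 2.60-fold higher (2.46 to 2.74). Tnfaip3 encodes A20, a ubiquitin-editing enzyme that shuts down signalling above the IkB kinases (ENSMUSG00000019850, chromosome 10, 19000910 to 19015657, minus strand). It had 6467 counts without methionine, or 330 CPM (322 to 338), and 1907 in complete medium, or 130 CPM (124 to 136), and was 2.54-fold higher (2.41 to 2.68). Compared with Rela within the same libraries, the fold of Nfkbia was 1.80 times (1.67 to 1.95) and that of Tnfaip3 1.76 times as large (1.63 to 1.91).

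The other IkB genes lay closer to Rela. Nfkbib encodes IkB-beta, a cytoplasmic inhibitor (ENSMUSG00000030595, chromosome 7, 28758251 to 28767512, minus strand). It had 2794 counts without methionine, or 143 CPM, and 1129 in complete medium, or 76.9 CPM, and was 1.85-fold higher (1.73 to 1.99). It shares 42 exon bases with Sirt2 on the opposite strand, with 1163 counts without methionine and 793 in complete medium. Another 314 are shared with Ccer2, also on the opposite strand, which had 0 counts in both libraries. Nfkbie, the IkB-epsilon gene (ENSMUSG00000023947, chromosome 17, 45555703 to 45563169, plus strand), was the lowest member, with 871 counts without methionine, or 44.5 CPM, and 419 in complete medium, or 28.5 CPM. It was 1.56-fold higher (1.39 to 1.75).

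Nfkbid encodes IkB-NS, a nuclear IkB that modulates transcription by bound subunits (ENSMUSG00000036931, chromosome 7, 30421732 to 30428746, plus strand). It had 2199 counts without methionine, or 112 CPM, and 1101 in complete medium, or 75.0 CPM. Its fold of 1.497 (1.39 to 1.61) lay just under 1.5, with Nfkbie the nearest member above. Against Rela, the intervals of the ratio of folds for Nfkbie (0.948 to 1.23) and Nfkbid (0.946 to 1.14) held 1.

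**Figure D3:**
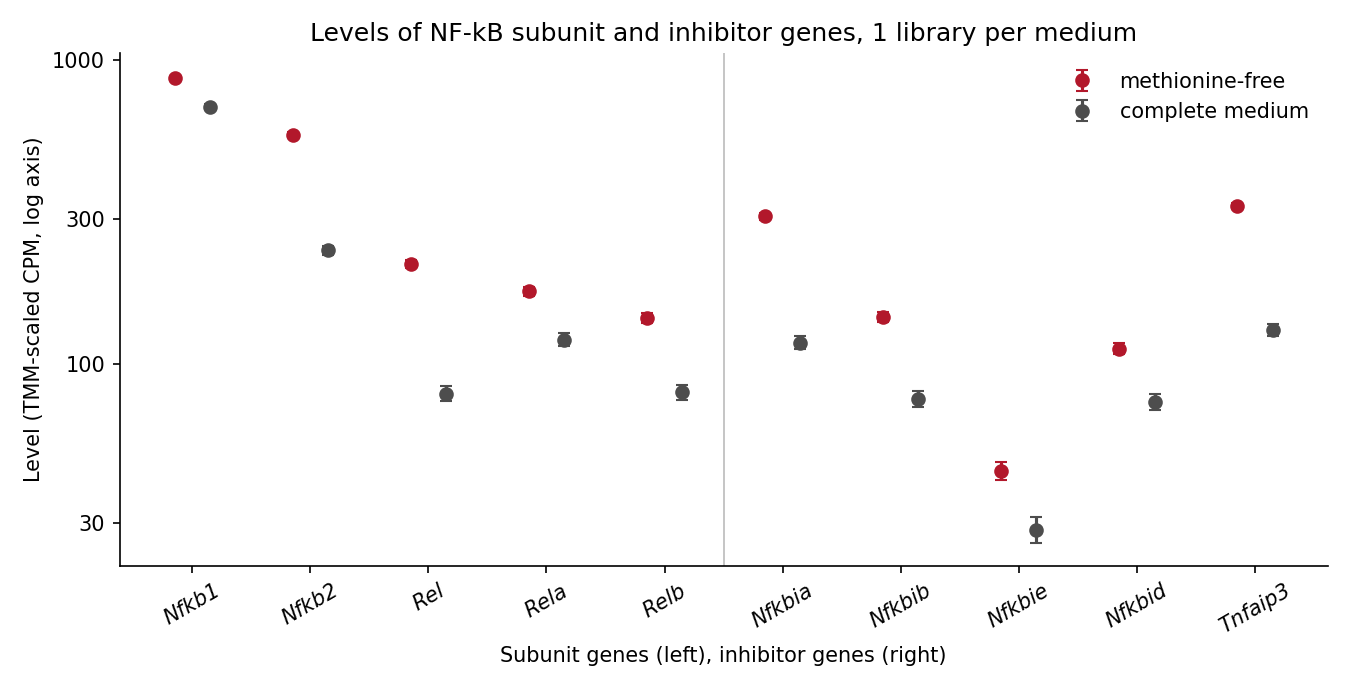
Level of each gene in the methionine-free (red, left of each pair) and complete-medium (grey) library, in TMM-scaled CPM on a log axis, with exact Poisson 95% intervals that are smaller than most points. Subunit genes stand left of the line and inhibitor genes right of it; the methionine-free point is above the complete-medium point in all 10 pairs, and the gap is narrowest for Nfkb1.

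Levels were compared between genes per length, as TPM over the exon union of each gene. In the methionine-free library the order was Nfkbia at 601 TPM, Nfkb2 at 391, Nfkb1 at 228, Nfkbib at 208, Rela at 179, Nfkbid at 151, Tnfaip3 at 145, Relb at 116, Rel at 90.6 and Nfkbie at 46.2 TPM. In complete medium it was Nfkbia at 232 TPM, Nfkb1 at 185, Nfkb2 at 164, Rela at 124, Nfkbib at 113, Nfkbid at 102, Relb at 66.1, Tnfaip3 at 57.1, Rel at 34.0 and Nfkbie at 29.8 TPM. The counting intervals of Nfkbid and Tnfaip3 overlapped without methionine, and in complete medium so did those of Rela and Nfkbib, Nfkbib and Nfkbid, and Rel and Nfkbie. Rel, with the highest fold of the 10, was thus the lowest subunit gene in both libraries. The place of Nfkb1 depends on the length used: with the longest transcript of each gene, 4149 bases for Nfkb1 in place of an exon union of 12061, Nfkb1 led in both libraries, at 499 TPM without methionine and 404 TPM in complete medium.

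As shares of the summed TPM of the 5 subunit genes, Nfkb1 made up 22.7% without methionine and 32.2% in complete medium. Nfkb2 made up 39.0% without methionine and 28.6% in complete medium, and Rel 9.03% without methionine and 5.94% in complete medium. With the longest transcript, Nfkb1 was at 42.5% without methionine and 54.5% in complete medium, Nfkb2 at 29.9% without methionine and 19.8% in complete medium, and Rel at 5.82% without methionine and 3.45% in complete medium. The direction of these 3 shares was the same on both length scales. Among the 5 inhibitor genes Nfkbia held 52.2% without methionine and 43.5% in complete medium. The summed TPM of the inhibitor genes over that of the subunit genes was 1.15 without methionine and 0.931 in complete medium, or 0.784 without methionine and 0.578 in complete medium with the longest transcript.

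**Figure D4:**
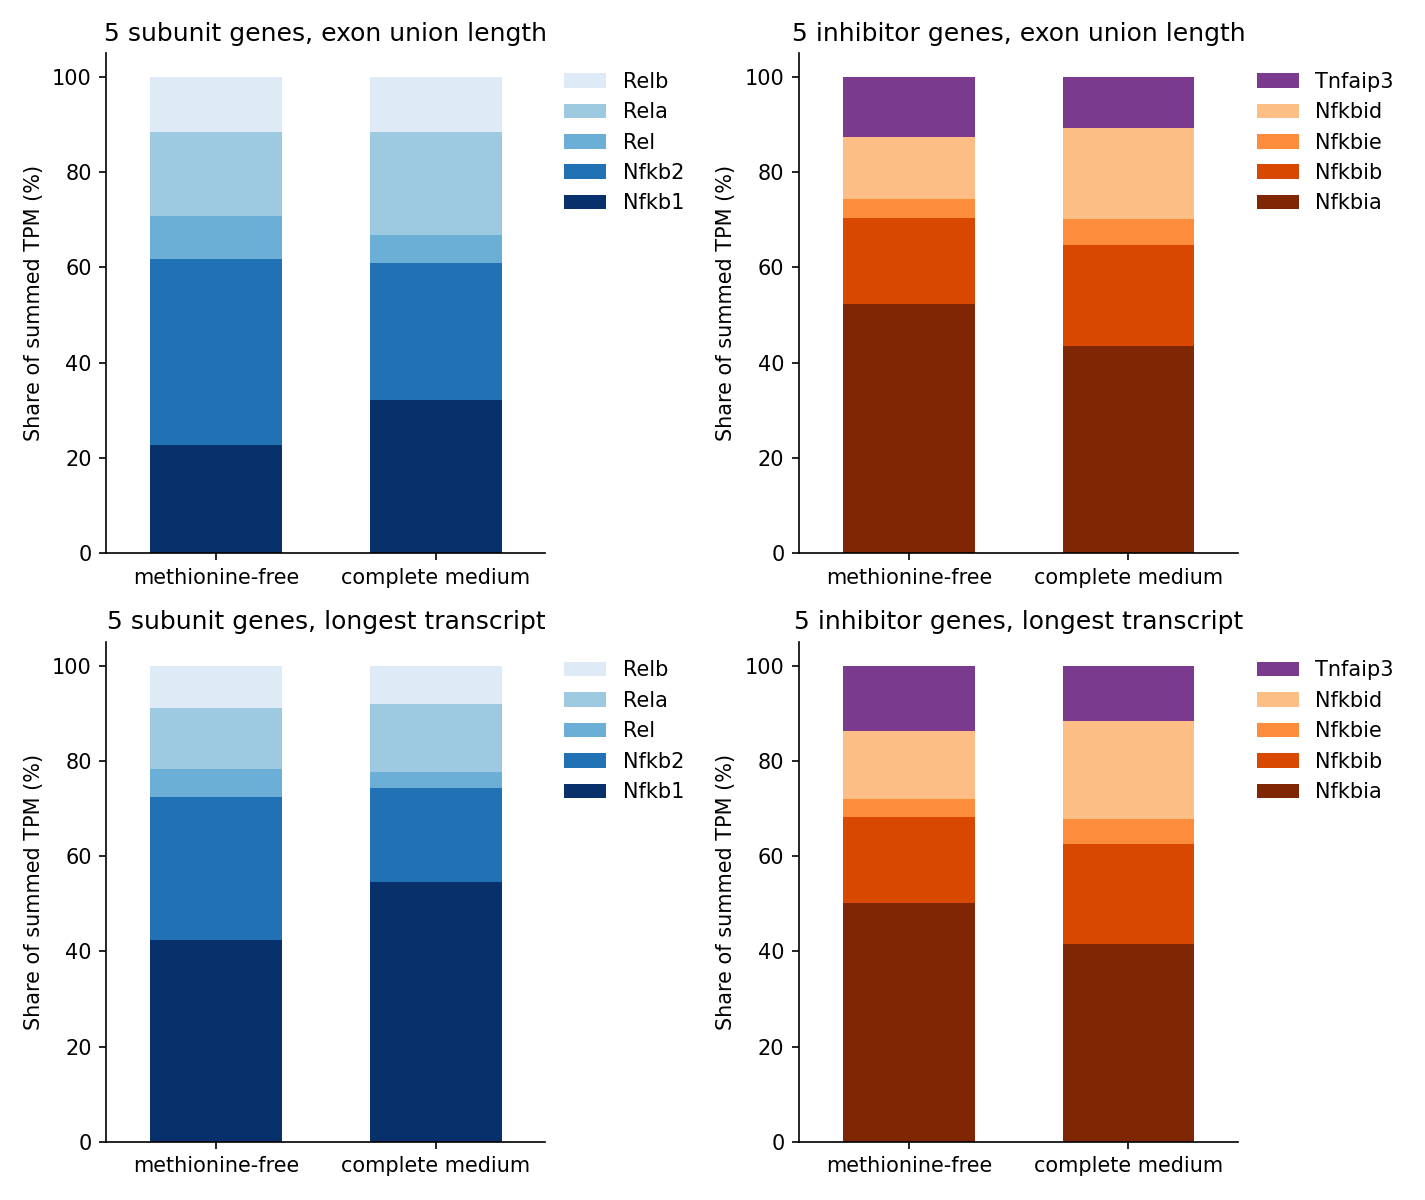
Shares of the summed TPM in percent, for the 5 subunit genes (left panels) and the 5 inhibitor genes (right panels), with the methionine-free library as the left bar and complete medium as the right bar of each panel. The upper panels use exon union lengths and the lower panels the longest transcript; Nfkb1 takes a smaller share and Nfkb2, Rel and Nfkbia larger ones in the methionine-free library on both scales.

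The other genes of the pathway were taken from lists chosen with earlier results of these data known. Their counts at 1.5-fold stand beside the 15.7% of all genes that were higher and the 18% that were lower. Of 11 genes of the IkB kinases and the kinases above them, 2 were at least 1.5-fold higher (18.2%) and none lower, a share higher near that of all genes, with a median log2 difference of 0.40 against 0.04 over all genes. Ikbkb, the catalytic subunit of the canonical route, was at 167 CPM without methionine and 1.24-fold higher (1.17 to 1.31). Chuk, the kinase IKK-alpha, was 1.14-fold higher (1.06 to 1.22), and Map3k14, which encodes NIK, 1.32-fold (1.20 to 1.45). Ikbkg, the scaffold subunit NEMO, was 1.34-fold higher (1.23 to 1.46) but shares 418 exon bases with G6pdx on the opposite strand. The 2 past 1.5-fold were Ikbke, at 1.75-fold (1.63 to 1.89), and Tab2, an adapter of the kinase TAK1, at 1.65-fold (1.56 to 1.73).

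Of 8 TRAF and cIAP genes, 2 were at least 1.5-fold higher (25.0%, against 15.7% of all genes) and none lower (18% of all genes), with a median of 0.12. Both are themselves reported NF-kB targets: Traf1 was 1.98-fold higher (1.87 to 2.10) and Birc3, the cIAP2 gene, 1.63-fold (1.55 to 1.71). Of 12 ubiquitin editors and A20 partners, 1 was higher and 1 lower (8.33% each), both shares below the 15.7% higher and 18% lower of all genes, with a median of 0.06. Otud7b, a deubiquitinase gene, was 1.62-fold higher (1.49 to 1.78), and Tnip3, which encodes an A20-binding protein, 1.53-fold lower (1.41 to 1.67). The A20-binding partner gene Tnip1 was 1.42-fold higher (1.32 to 1.53).

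Of 12 other IkB-like and nuclear regulators, 2 were at least 1.5-fold higher (16.7%, near the 15.7% of all genes) and none lower (18% of all genes), with a median of 0.15. Nfkbiz, which encodes the nuclear IkB-zeta, was 1.81-fold higher (1.67 to 1.97), at 104 CPM without methionine. Bcl3, a nuclear IkB that binds p50 and p52 dimers, had a ratio of 0.847 (0.767 to 0.934). Nkiras1, the other gene past 1.5-fold, overlaps Rpl15 on the opposite strand, which had 20005 counts without methionine and 11041 in complete medium, against 271 for Nkiras1 without methionine, and is uncertain.

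The list of reported NF-kB targets was likewise chosen with earlier results of these data known, and it also holds Traf1 and Birc3. Of 45 measured genes reported as NF-kB targets in lymphocytes or other cells, 25 were at least 1.5-fold higher (55.6%, against 15.7% of all genes). Another 4 were at least 1.5-fold lower (8.89%, against 18%). The median log2 difference was 0.70. At 2-fold, 13 were higher (28.9%, against 5.8% of all genes) and 2 lower (4.44%, against 9.29%). The 4 with the largest differences were Il23a, with 818 counts without methionine and 5 in complete medium, Il2, with 47 without methionine and 3 in complete medium, Cd83, with 2628 without methionine and 363 in complete medium, and Csf2, with 223 without methionine and 35 in complete medium. Cd83, a surface protein of activated lymphocytes and dendritic cells, was 5.43-fold higher (4.86 to 6.07). Genes picked after their values were seen show the spread. The adhesion molecule gene Icam1 was 2.42-fold higher (2.30 to 2.55) and the stress gene Gadd45b 3.39-fold (3.20 to 3.59), while the antioxidant enzyme gene Sod2 had a ratio of 0.899 (0.838 to 0.966), the lymphotoxin gene Ltb of 0.977 (0.927 to 1.03), and Ier3, an immediate early gene, had a ratio of 0.400 (0.336 to 0.475).

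**Figure D5:**
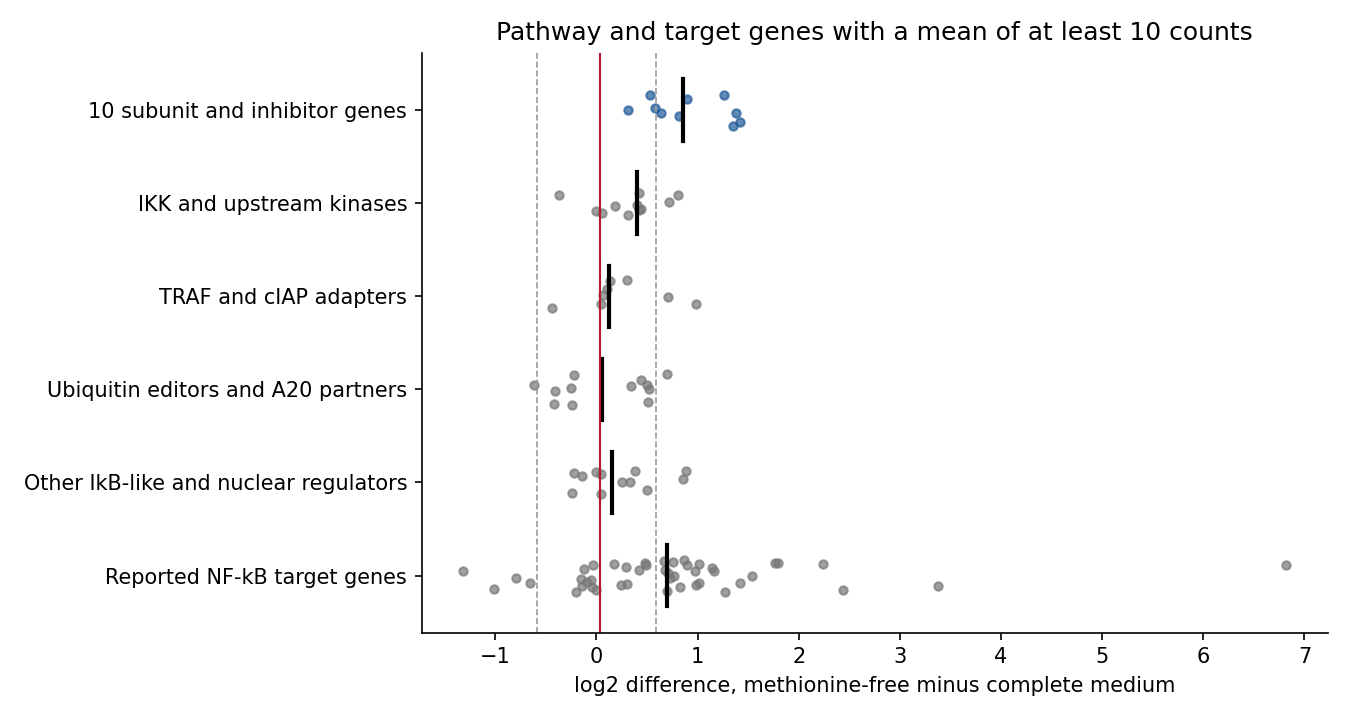
log2 difference, methionine-free minus complete medium, of the 10 genes (blue) and of the genes of 5 pathway and target lists (grey) with a mean of at least 10 counts; black bars are medians, the red line is the median of all genes and dashed lines stand at 1.5-fold. The 10 genes all lie right of 0, with a median of 0.85, and the target list has the next highest median, 0.70. The lists were chosen with earlier results of these data known.

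NF-kB genes are also expressed by B cells and myeloid cells, so markers of these were read beside the members. The 7 B cell markers summed to 7.96 CPM without methionine and 13.7 CPM in complete medium, each between 0.459 and 2.35 CPM without methionine and between 0.204 and 4.36 CPM in complete medium. The 11 myeloid and dendritic cell markers summed to 33.5 CPM without methionine and 14.3 CPM in complete medium, a ratio of 2.34 with an upper counting limit of 2.75. Zbtb46, with 359 counts without methionine and 77 in complete medium, and Flt3, with 149 without methionine and 33 in complete medium, made up most of that sum. Cd68 had 118 counts without methionine and 68 in complete medium, and the other 8 markers had at most 16 counts in a library. Among these, Itgax had 16 counts without methionine and 8 in complete medium, and Clec9a and Siglech each 1 and 0. Lyz2 had 4 counts in each library and Itgam 1 in each. Without methionine and in complete medium, Adgre1 had 5 and 8 counts, Xcr1 2 and 5, and Csf1r 0 and 6. All 4 myeloid and dendritic cell markers past the minimum mean of 10 counts were higher without methionine, with a median log2 difference of 1.15. The minimum shaped this set: Itgax passed it only through its methionine-free counts, and Adgre1, Xcr1 and Csf1r, lower without methionine, fell under it. The counting interval of the fold lay above 1 for Zbtb46 (2.73 to 4.53) and Flt3 (2.31 to 5.10). It held 1 for Cd68 (0.957 to 1.78) and Itgax (0.605 to 4.05). The NK cell marker Klrb1c had 0 counts in both libraries and Ncr1 0 without methionine and 3 in complete medium. Of the other genes on the list of NK and CD4 T cell markers, Eomes, a transcription factor gene that CD8+ T cells are also known to express, had 2669 counts without methionine (136 CPM) and 2341 in complete medium (159 CPM), and Foxp3, the regulatory T cell factor gene, had 78 without methionine and 52 in complete medium. The 10 genes together were at 2899 CPM without methionine and 1646 CPM in complete medium. The summed CPM of markers is not a share of cells, so these sums do not give amounts of cells. What part other cells had in the differences was not tested.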

How the data were processed

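The deposited table holds raw counts per Ensembl gene, as whole numbers, for 1 methionine-free and 1 complete-medium library, and its columns were matched to the samples by title and description. Per the submitters' processing notes, reads were handled on mm10. The sources used here do not name the aligner, the counter, its use of strand or the annotation, nor which of the 2 kits in the labels' protocols made each library. Gene names, coordinates (1-based) and lengths came from GENCODE M21 (GRCm38), which matched 54495 of 54532 identifiers.

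Counts were scaled with TMM in edgeR 4.0.16 (R 4.3.3). Log2 differences were taken after adding 0.5 counts, weighted by library size, to each gene; folds had nothing added. All 13041 genes averaging 10 counts or more were kept. Intervals (95%, exact conditional, Clopper-Pearson or Poisson, scipy 1.17.1) cover counting error only and no spread between cultures. Reads without molecular identifiers are not independent molecules, so the intervals may be too narrow even for counting error. A single count was worth 0.0510 CPM without methionine and 0.0681 CPM in complete medium. TPM was computed from counts and exon union length. The steps were tested on simulated libraries with counting noise only, which cannot check them against spread between cultures. With 1 library per medium nothing was tested across replicates, and genes were called by the size of the log2 difference. The share of genes that passed or equalled Nfkb1 used the fold.

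The genes and lists were chosen with earlier results of these data known. By rule, all 10 genes were named, with the 4 largest absolute differences of each list and the core kinase and nuclear IkB genes; some of these, and 1 of the lists, are not reported here. The Cd4, Icam1, Gadd45b, Sod2, Ltb and Ier3 values, and those of single marker and overlapping genes, were chosen after they were seen. No gene of similar pattern was sought, as 2 libraries give 1 difference per gene. Alternatives were DESeq2 1.42.0 size factors, the library total, upper quartile factors, a prior count of 2, other minimum counts, a 2-fold call and other gene lengths.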

Additional observations from a re-analysis of the deposited data

How the results depend on the processing

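Each of the 10 differences stayed within its own counting interval under the DESeq2 size factors, the library total, upper quartile factors and a prior count of 2, and all stayed above 0. The median of the 10 genes was between 0.84 and 0.86 under these settings. The number of members at least 1.5-fold higher was 7 under every scaling and minimum count except the upper quartile factors, where Nfkbid passed and it was 8; at 2-fold it was 4.

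Over all genes, the 1.5-fold call took 4898 higher and 6312 lower genes with no minimum count, where single counts can make the fold, and 1163 higher and 1300 lower with a mean of at least 100 counts. At 2-fold, 756 were higher and 1211 lower. For the lists at 2-fold, none of the IkB kinase, TRAF and cIAP, ubiquitin editor and IkB-like genes was higher, the ubiquitin editors 0 lower, and the targets 13 higher and 2 lower. At 1.5-fold with a mean of at least 100 counts, 22 targets were higher and 3 lower.

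The shares depend on gene length, by construction. Nfkb1 had 42.5% (methionine-free) and 54.5% (complete medium) of the subunit sum with the longest transcript and 44.2% (methionine-free) and 57.5% (complete medium) with no length scaling. Nfkb2 had 29.9% (methionine-free) and 19.8% (complete medium), then 28.9% (methionine-free) and 19.4% (complete medium). Rel had 5.82% (methionine-free) and 3.45% (complete medium), then 10.9% (methionine-free) and 6.56% (complete medium). Nfkbia had 50.2% (methionine-free) and 41.6% (complete medium) of the inhibitor sum, then 32.7% (methionine-free) and 27.5% (complete medium). The direction between media was the same in each case.

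No paired analysis was possible because each medium has 1 library. Leaving out replicates was not run for the same reason. Every member had 419 counts or more in each library.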
